A study of Mus musculus with 24 samples.

Results

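The genes described here are 10 regulators of fat cells that are tied to fatty acids: the peroxisome proliferator-activated receptors Ppara, Ppard and Pparg, the retinoid X receptors Rxra, Rxrb and Rxrg, the CCAAT/enhancer-binding proteins Cebpa, Cebpb and Cebpd, and the fatty acid receptor Ffar4 (older name Gpr120). Every array probe annotated to 1 of these symbols was taken, which gave 16 of 45281 probes and 10 of 19053 named genes. Pparg and Rxrb each had 3 probes, Ppard and Cebpd had 2, and the other 6 genes had 1. Each gene was represented by its brightest probe, and all 10 of these passed the filter on dim probes in both tissues.

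Male C57Bl/6J mice, with no genetic change or age named in the labels, gave the samples: RNA of white adipose tissue (WAT) and of brown adipose tissue (BAT). Their food was low in fat, or it was a high-fat diet (HFD) made with corn oil or with the long-chain omega-3 fatty acids eicosapentaenoic and docosahexaenoic acid (EPA/DHA). Each tissue and diet had 4 arrays, 24 in all, from mice picked to stand for their diet group in weight and plasma lipids. The WAT depot is not named, and the extraction text speaks of skeletal muscle although the tissue labels name fat. Nothing in the labels says whether a BAT and a WAT array came from the same mouse, and p-values measure only the spread between these arrays.

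PPARs and RXRs are nuclear receptors that bind DNA together as pairs, with fatty acids and their products among the ligands of PPARs. PPARγ and C/EBPα switch on and maintain the fat cell programme and sustain each other's expression, while C/EBPβ and C/EBPδ act early in fat cell formation and PPARα drives genes of fatty acid oxidation in brown fat. FFAR4 is a receptor on the cell surface that responds to long-chain fatty acids, omega-3 fatty acids among them.

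The promoters of Cebpa and Ffar4 are shown because these were the members that passed a diet comparison. Both are from RefSeq (GRCm38.p6), 250 bases before to 50 after the transcription start, read 5′ to 3′ on the gene's strand. Capitals mark the core of a C/EBP site, TTGCG, or its reverse complement CGCAA.
Cebpa, chr7:35119043-35119342, plus strand: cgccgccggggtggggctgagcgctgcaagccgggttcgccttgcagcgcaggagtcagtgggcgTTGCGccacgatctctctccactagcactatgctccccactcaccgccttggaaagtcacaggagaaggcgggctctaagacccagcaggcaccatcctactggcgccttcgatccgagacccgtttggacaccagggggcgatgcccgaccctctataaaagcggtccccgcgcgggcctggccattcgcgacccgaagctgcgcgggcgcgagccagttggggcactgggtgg
Ffar4, chr19:38096829-38097128, plus strand: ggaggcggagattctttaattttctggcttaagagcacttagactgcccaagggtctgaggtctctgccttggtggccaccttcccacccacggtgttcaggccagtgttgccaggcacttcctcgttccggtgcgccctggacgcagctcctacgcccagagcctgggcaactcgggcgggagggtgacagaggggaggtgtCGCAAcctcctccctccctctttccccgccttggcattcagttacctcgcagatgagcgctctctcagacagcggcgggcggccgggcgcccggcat
The Cebpa window held TTGCG on the plus strand from -185 to -181 of the start and the letters TATAAA from -30 to -25. The Ffar4 window held the C/EBP core on the minus strand from -47 to -43. On either strand TTGCG occurred in 17.4% of 32851 RefSeq promoter windows of the same length and TATAAA in 13.6%. Among the other members TTGCG was also in 1 Rxra window, and TATAAA in 1 Pparg window and 1 Cebpb window. The textbook PPAR-RXR element, AGGTCA repeated after 1 base of any kind, was in none of the 14 windows found for 9 members and in 13 of all windows, which says only that these letters are not in these windows. A single AGGTCA occurred in 16.3% of all windows, and among the members in 2 of the 3 Pparg windows, 1 Rxra window and 1 Rxrg window.

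Values are log2 expression per probe with a floor near 7, and brightness cannot be compared between probes. Sorted by size, the values of every array were nearly the same (largest gap 0.00694), which hides any shift in total signal. The tissue labels fitted most defining markers: the mean of 7 brown fat markers was 11.3 to 12.4 in BAT and 7.82 to 9.95 in WAT. The fat cell gene Fabp4 was an exception, its brightest probe lying between 7.15 and 7.96 in all 24 arrays. In WAT, EPA/DHA replicate 2 (9.95) and corn-oil replicate 4 (8.89) stood above the rest in brown markers. In BAT, a skeletal muscle score over 10 genes ran from 7.77 to 12.3, and in WAT a liver score over 8 of 11 listed genes ran from 8.76 to 12.3. The other listed liver genes, Alb, Fgb and Tat, lay near the floor in WAT and did not pass the filter. Low-fat BAT replicate 2 had the lowest mean correlation with its tissue, 0.969.

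**Figure D1:**
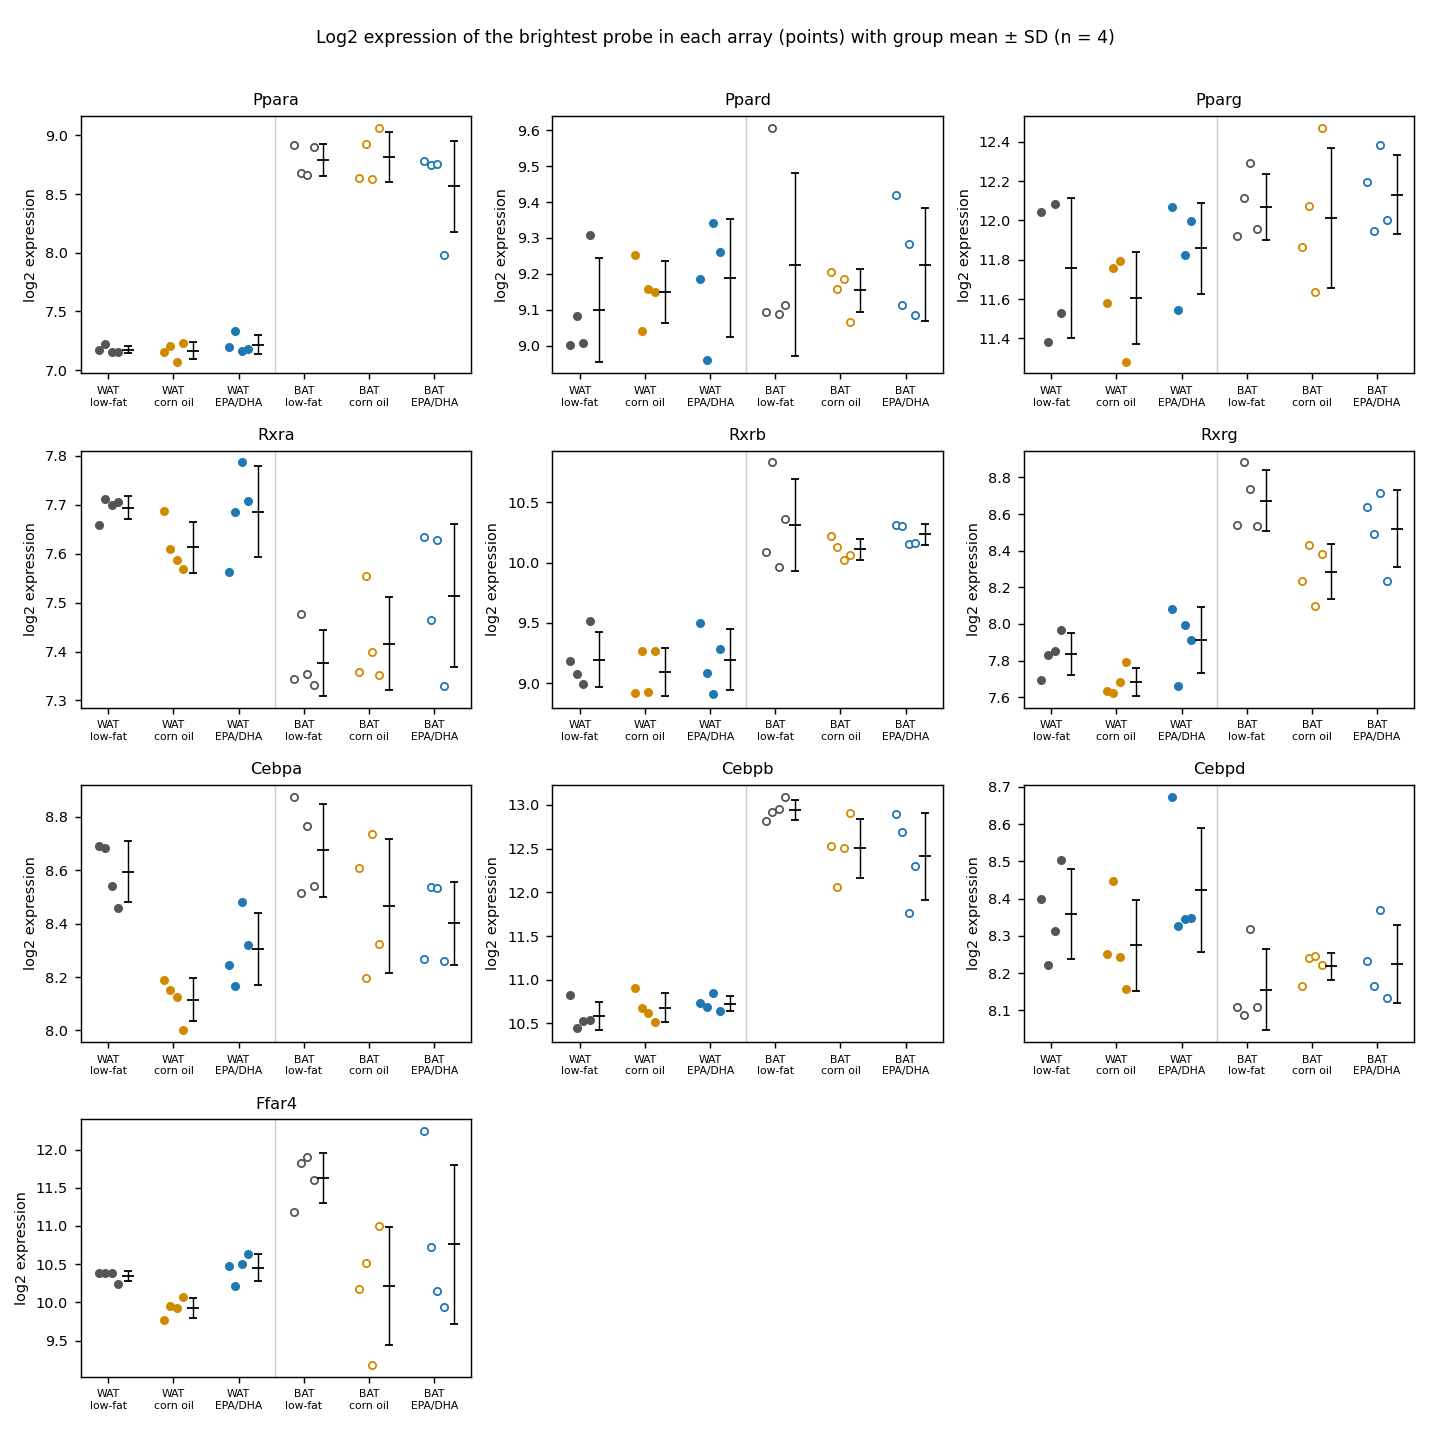
Log2 expression (y axis) of the brightest probe of each member in every array, by tissue and diet (x axis), with WAT as filled and BAT as open points and bars for the group mean ± SD (n = 4). The scales differ between panels, and Cebpb and Ppara lie far higher in BAT. All members but Ppard and Cebpb have their lowest WAT group mean on corn oil, Cebpa and Ffar4 among them.

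In WAT the corn-oil HFD was compared with the low-fat diet, which asks how the regulators stand after fat feeding. Cebpa and Ffar4 fell, the other 8 members did not pass, and none rose. That is 2 of 10 genes, against 3.87% of all genes called in this comparison and 1.82% called lower. In these pieces of whole tissue, fewer cells of a type and less RNA per cell cannot be told apart.

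Cebpa, the factor that keeps fat cells differentiated, read 8.69, 8.69, 8.54 and 8.46 in the 4 low-fat WAT arrays. On corn oil it read 8.19, 8.15, 8.12 and 8.0. Every corn-oil array lay below every low-fat array. Cebpa fell by 0.48 ± 0.07 (SE; 95% interval -0.64 to -0.32; limma adjusted p = 0.0115), a fold of 0.717. It stayed past the threshold without any 1 of the 8 arrays.

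Ffar4, the omega-3 fatty acid receptor, read 10.38, 10.38, 10.38 and 10.24 on the low-fat diet. On corn oil it read 9.77, 9.95, 9.93 and 10.07. These groups did not overlap either, as for 5.86% of all genes with the corn-oil arrays lower. Ffar4 fell by 0.42 ± 0.09 (95% interval -0.61 to -0.23; limma adjusted p = 0.0307), a fold of 0.748. It was called in 1 of 8 fits that left out an array, that without corn-oil replicate 4, and not with the replicate number as a block (adjusted p = 0.0603). The differences in those fits ran from -0.47 to -0.36, with adjusted p up to 0.0768.

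Some marker scores moved along with these falls. The macrophage score, over 11 of 12 listed genes, was 9.27 to 9.47 on the low-fat diet and 9.55 to 9.97 on corn oil. Mesothelial and mast cell scores were lower on corn oil, at 7.46 to 7.75 against 7.88 to 8.19 and at 7.76 to 7.98 against 8.01 to 8.42. The fat cell score, over 6 genes, was 11.378 to 11.545 on corn oil and 11.518 to 11.626 on the low-fat diet, with overlap. With the macrophage score as a covariate, added after the data were seen, neither gene passed. Cebpa was then at -0.33 (limma adjusted p = 0.0579) and Ffar4 at -0.36 (adjusted p = 0.166). The macrophage score did not overlap between these diets, so its part and that of diet cannot be told apart by this fit. With the liver score as a covariate both passed, Cebpa at -0.49 (adjusted p = 0.0133) and Ffar4 at -0.42 (adjusted p = 0.0457). Without both WAT arrays high in brown markers they passed too, at -0.44 (adjusted p = 0.0279) and -0.47 (adjusted p = 0.0124). The part of the mesothelial, mast cell and fat cell scores was not tested.

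Pparg, the master regulator of fat cells, did not pass. It read 12.04, 11.38, 12.08 and 11.53 on the low-fat diet and 11.58, 11.76, 11.80 and 11.28 on corn oil. The groups overlapped, and the difference was -0.16 ± 0.18 with a 95% interval of -0.56 to 0.24, which holds a fall as large as that of Cebpa. The 2 dimmer Pparg probes gave -0.26 ± 0.13 and -0.10 ± 0.09. Ppara and Ppard differed by -0.01 ± 0.04 and 0.05 ± 0.09, with Ppara close to the floor. The RXR genes, partners of the PPARs, had differences of -0.08 (Rxra), -0.10 (Rxrb) and -0.15 (Rxrg). Cebpb and Cebpd, the early C/EBP factors, were at 0.10 ± 0.09 and -0.08 ± 0.09. The median over the 10 members was -0.09, and over all 13349 genes tested in WAT it was close to 0.

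**Figure D2:**
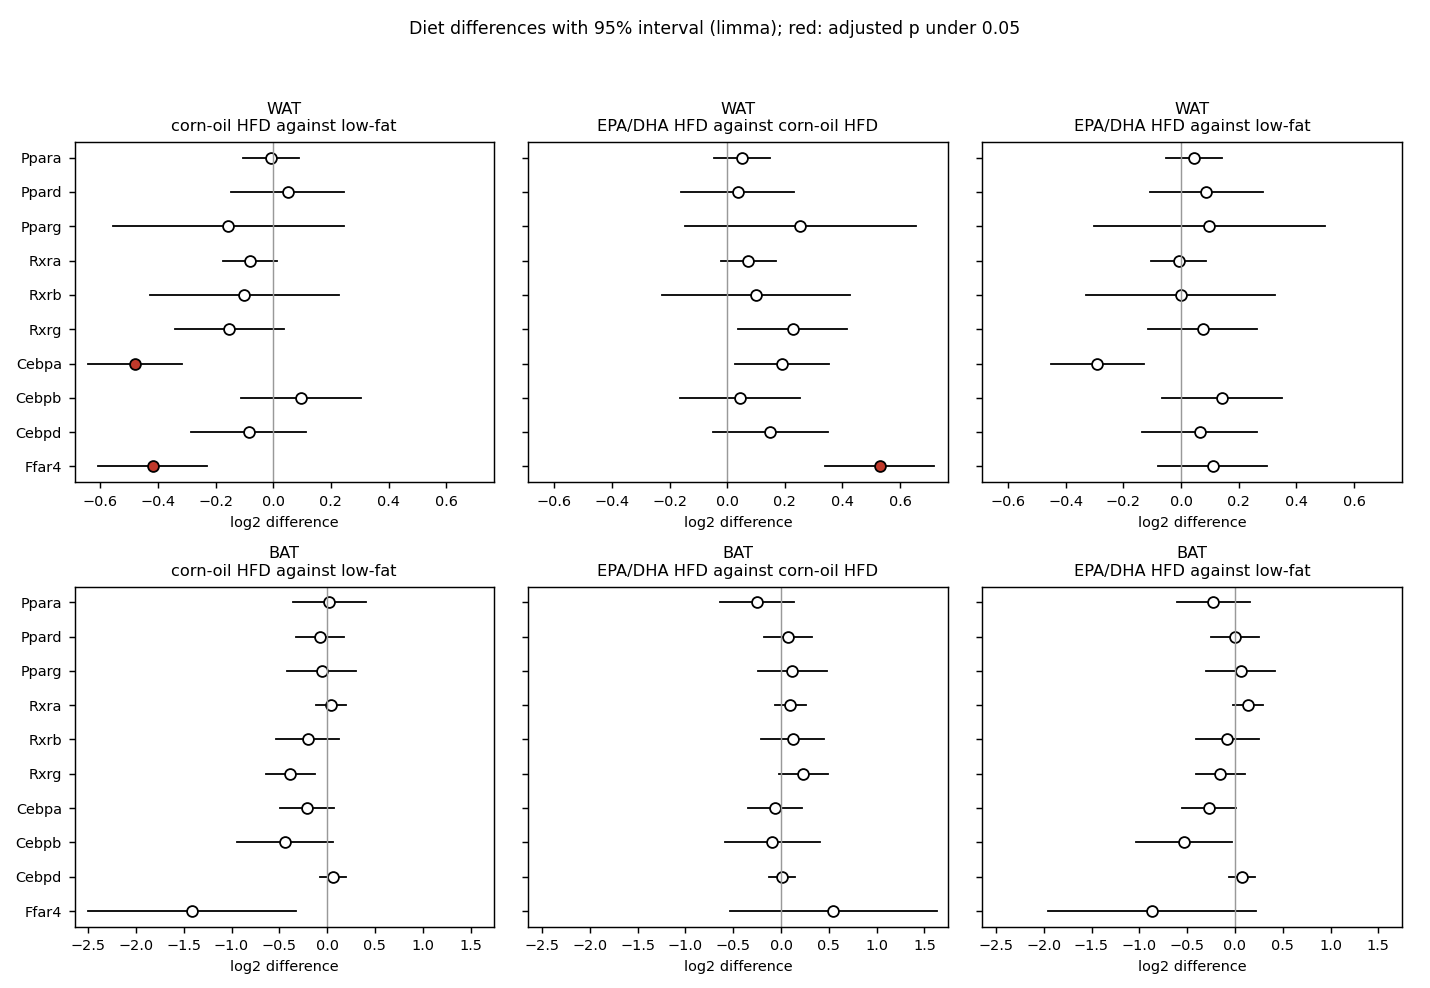
Log2 difference between diets (x axis) for each member (rows), with the 95% interval from limma, WAT in the upper and BAT in the lower panels on different x scales. Filled red points, with adjusted p under 0.05, are Cebpa and Ffar4 in WAT on corn oil against low-fat and Ffar4 in WAT on EPA/DHA against corn oil.

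Next, WAT on the EPA/DHA HFD was set against WAT on the corn-oil HFD, which asks how the members differ between these fat sources. Ffar4 rose and the other 9 members did not pass, 1 of 10 against 2.34% of all genes called and 1.18% called higher. On EPA/DHA it read 10.47, 10.22, 10.50 and 10.64, every array above every corn-oil array, as for 5.29% of all genes. The rise was 0.53 ± 0.09 (95% interval 0.34 to 0.72; limma adjusted p = 0.0163), a fold of 1.44. It was past the threshold in 7 of 8 fits that left out an array. Without EPA/DHA replicate 3 it was 0.52 (adjusted p = 0.0521). The 2 comparisons share the corn-oil arrays, so the fall and the rise are not separate evidence.

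The macrophage score was 9.11 to 9.84 on EPA/DHA and overlapped that on corn oil. The endothelial score over 8 genes was 8.90 to 8.96 with EPA/DHA and 8.98 to 9.12 with corn oil, with no overlap. The white fat score over 4 genes was 9.72 to 10.34 and 10.32 to 10.79, and the part of these 2 scores was not tested. With the macrophage score as a covariate Ffar4 was 0.49 higher and did not pass (limma adjusted p = 0.0533). Without both WAT arrays that stood out in brown markers, the rise was 0.66 (adjusted p = 0.00458).

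Cebpa read 8.25, 8.17, 8.48 and 8.32 on EPA/DHA, overlapping corn oil, with a difference of 0.19 ± 0.07 (95% interval 0.03 to 0.35; limma adjusted p = 0.253). Rxrg, whose product is the RXR of more restricted tissue range, read 8.08, 7.66, 7.995 and 7.91 against 7.63, 7.62, 7.68 and 7.79. Its difference was 0.23 ± 0.09 (adjusted p = 0.232). Pparg was at 0.25 ± 0.18, with an interval of -0.15 to 0.65. All 10 differences were positive, with a median of 0.12, and 3 members had an unadjusted p under 0.05 in limma, among 17.6% of all genes.

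Against the low-fat diet, WAT on EPA/DHA had 0 of 10 members called by limma, where 0.03% of all genes were, and 1 member with an unadjusted p under 0.05, among 9.06% of all genes. That member was Cebpa, at -0.29 ± 0.07 (95% interval -0.45 to -0.13; adjusted p = 0.327). Its EPA/DHA arrays lay at 8.17 to 8.48 and its low-fat arrays at 8.46 to 8.69, overlapping in 1 array each. Ffar4 was at 0.11 ± 0.09 (95% interval -0.08 to 0.30).

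In BAT no member passed in any diet comparison, and hardly any gene did. Limma called 0% of 13400 genes for corn oil against low-fat, 0% for EPA/DHA against corn oil, and 0.00746% (1 gene) for EPA/DHA against low-fat. At an unadjusted p under 0.05 there were 1220, 668 and 639 genes (9.1%, 4.99% and 4.77%), and 2, 0 and 1 of the 10 members.

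Ffar4 had the widest spread of the members in BAT. It read 11.18, 11.83, 11.90 and 11.60 on the low-fat diet. On corn oil it read 10.17, 10.52, 9.18 and 10.99, below every low-fat array. On EPA/DHA it read 12.24, 10.72, 10.15 and 9.94, overlapping both other groups. The corn-oil difference was -1.41 ± 0.49 (95% interval -2.50 to -0.33; unadjusted p = 0.0152, limma adjusted p = 0.469). In size it stood at percentile 99.9 among all genes. Without corn-oil replicate 3 it was -1.07 (adjusted p = 0.85).

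Rxrg read 8.54, 8.88, 8.74 and 8.53 in low-fat BAT and 8.23, 8.43, 8.10 and 8.38 on corn oil, with no overlap. The difference was -0.39 ± 0.12 (95% interval -0.64 to -0.13; unadjusted p = 0.00665, limma adjusted p = 0.404). Ffar4 and Rxrg were the 2 of 10 members whose groups did not overlap, both lower on corn oil, against 2.89% of all genes. Cebpb, which is induced in brown fat by adrenergic signals, read 12.82, 12.92, 12.95 and 13.10 on the low-fat diet. It read 12.53, 12.07, 12.51 and 12.91 on corn oil and 12.89, 12.69, 11.76 and 12.30 on EPA/DHA. The highest reading of either HFD group fell within the low-fat range, and the differences of -0.44 ± 0.23 and -0.53 ± 0.23 did not pass (limma adjusted p = 0.67 and 0.971).

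Marker scores of these BAT groups were as follows. The muscle score was 8.77 to 10.9 in low-fat arrays, 9.97 to 12.1 in corn-oil arrays and 7.77 to 12.3 in EPA/DHA arrays, with wide overlap. The white fat score was 7.31 to 7.86 in low-fat, 7.93 to 8.73 in corn-oil and 7.55 to 7.73 in EPA/DHA arrays. Of its genes Lep moved most, with means of 8.74, 11.2 and 9.19 in that order. With the muscle score as a covariate, added after the data were seen, the corn-oil differences were -1.29 for Ffar4 and -0.28 for Rxrg (limma adjusted p = 0.613 and 0.411). The fat cell score was 11.14 to 11.32 in low-fat and 11.02 to 11.13 in corn-oil arrays, with no overlap, and 10.99 to 11.35 with EPA/DHA. The brown fat score was 11.80 to 12.42 in low-fat, 11.32 to 11.87 in corn-oil and 11.59 to 12.04 in EPA/DHA arrays. The part of the white, brown and general fat cell scores in the differences was not tested.

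Probes of 1 gene did not always move alike in BAT. The brightest Pparg probe differed by -0.06 ± 0.16 on corn oil, the second by -0.19 ± 0.12 and the third by -0.45 ± 0.12 (limma adjusted p = 0.347). On the low-fat diet the third probe read 8.76, 8.53, 8.72 and 8.41, with corn oil 8.02, 8.14, 7.94 and 8.54, and with EPA/DHA 8.20, 8.19, 8.03 and 8.02. Its EPA/DHA difference from low-fat was -0.50 ± 0.12 (unadjusted p = 0.00195, adjusted p = 0.657), and every EPA/DHA array lay below every low-fat array. Which Pparg transcripts the probes detect was not analysed here. The second Rxrb probe differed by -0.26 ± 0.07 on corn oil (adjusted p = 0.352) where the brightest gave -0.20 ± 0.15. The third Rxrb probe lay near the floor throughout, at 7.06 to 7.27, and the second probes of Ppard and Cebpd did not pass the filter.

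**Figure D3:**
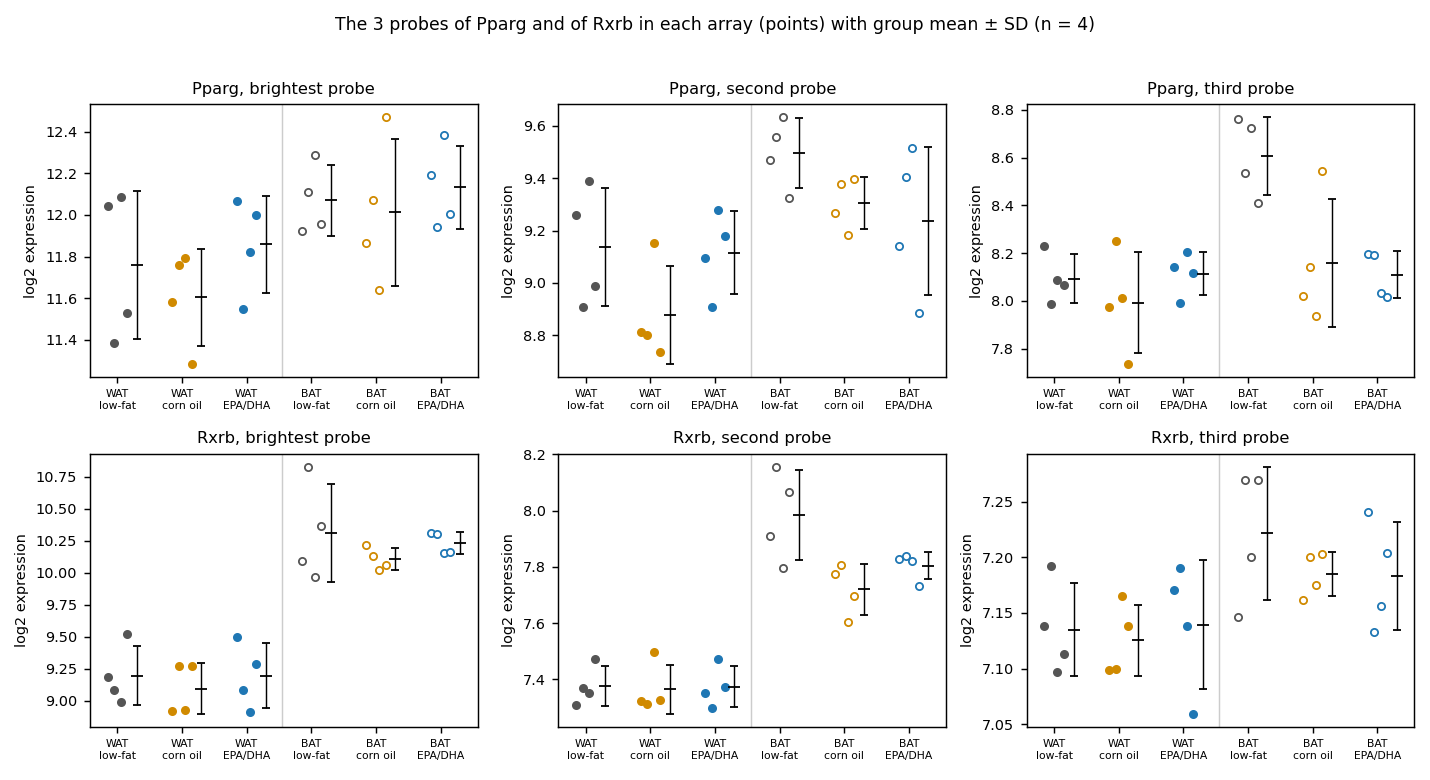
Log2 expression (y axis) of the 3 probes of Pparg and the 3 of Rxrb in every array by tissue and diet (x axis), with group mean ± SD (n = 4). The third Pparg probe has its highest group mean in low-fat BAT, at 8.41 to 8.76. Corn-oil BAT replicate 4, at 8.54, lies within that range, and the EPA/DHA BAT arrays lie below it. The brightest probe overlaps between diets.

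The diet differences were then compared between the tissues. No member passed when its diet difference in WAT was tested against that in BAT. Limma called 0.652% of all genes there for corn oil against low-fat and 0.252% for EPA/DHA against corn oil. At an unadjusted p under 0.05 there was 1 member in the first, among 13.1% of all genes, and 0 in the second, among 8.45%. For Ffar4 the corn-oil difference was 0.99 ± 0.53 less negative in WAT (95% interval -0.10 to 2.09; adjusted p = 0.508). For Cebpa the tissue difference was -0.27 ± 0.15 (95% interval -0.59 to 0.05; adjusted p = 0.545). Cebpb had the smallest p, at 0.54 ± 0.26 (unadjusted p = 0.0497, adjusted p = 0.446). So the calls of Cebpa and Ffar4 in WAT are not shown to be particular to WAT.

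More members passed between the tissues than between diets. On the low-fat diet 7 of 10 passed between WAT and BAT, 5 lower and 2 higher in WAT, where 43.7% of all genes were called, 20.4% lower and 23.3% higher. On corn oil 6 passed and on EPA/DHA 5, against 41.1% and 37.7% of all genes. These shares of all genes are high, so a call by itself says little about a member, and the sizes are what follows.

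Cebpb was 10.45 to 10.83 in low-fat WAT and 12.82 to 13.10 in low-fat BAT. Its WAT minus BAT difference was -2.36 ± 0.18 (limma adjusted p = 1.75e-09), larger in size than that of 98.9% of genes. On corn oil it was -1.82 ± 0.18 and on EPA/DHA -1.69 ± 0.18, again with no overlap. Ppara, the receptor of fatty acid oxidation, read 7.15 to 7.22 in low-fat WAT, near the floor, and 8.66 to 8.92 in BAT. The difference was -1.62 ± 0.13 (adjusted p = 4.06e-09), then -1.65 ± 0.13 on corn oil and -1.35 ± 0.13 on EPA/DHA. As WAT lies near the floor, these differences of Ppara can be understated.

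The RXR genes split by tissue. Rxrb read 8.99 to 9.52 in low-fat WAT against 9.96 to 10.83 in BAT, a difference of -1.12 ± 0.16 (limma adjusted p = 6.72e-06). Its second probe was also lower in WAT, at -0.61 ± 0.07. Rxrg was at 7.69 to 7.97 in WAT and 8.53 to 8.88 in BAT, a difference of -0.84 ± 0.11 (adjusted p = 1.94e-06). Rxra ran the other way, at 7.66 to 7.71 in WAT against 7.33 to 7.48 in BAT, 0.32 ± 0.06 higher in WAT (adjusted p = 0.000258). On corn oil and EPA/DHA the Rxra difference was 0.20 and 0.17, and the latter lost its call in 7 of 15 alternatives.

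Ffar4 was lower in WAT than in BAT on the low-fat diet alone by the threshold, at -1.28 ± 0.37 (limma adjusted p = 0.00925). On corn oil and EPA/DHA it was -0.29 ± 0.37 and -0.31 ± 0.37 (adjusted p = 0.606 and 0.591), and for corn oil the interaction above did not call this change. Cebpa passed on corn oil, at -0.35 ± 0.11 (adjusted p = 0.0158), with a call kept in 12 of 15 alternatives and 5 of 8 fits that left out an array. It did not pass on the low-fat diet or EPA/DHA, at -0.08 ± 0.11 and -0.10 ± 0.11. Cebpd was 0.20 ± 0.08 higher in low-fat WAT (adjusted p = 0.049), with overlapping arrays and a call kept in 5 of 15 alternatives. Ppard did not pass on any diet, with differences from -0.13 to 0.00 and a 95% interval of -0.35 to 0.10 on the low-fat diet. Pparg did not pass at its brightest probe on any diet, with -0.31 ± 0.18 on the low-fat diet (adjusted p = 0.195). There its dimmer probes passed, at -0.36 ± 0.13 (adjusted p = 0.0329) and -0.51 ± 0.11 (adjusted p = 0.00114). On corn oil the second probe passed at -0.43 ± 0.13 (adjusted p = 0.0126) and the third did not, at -0.17 ± 0.11 (adjusted p = 0.29). Neither passed on EPA/DHA, at -0.12 and 0.00.

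**Figure D4:**
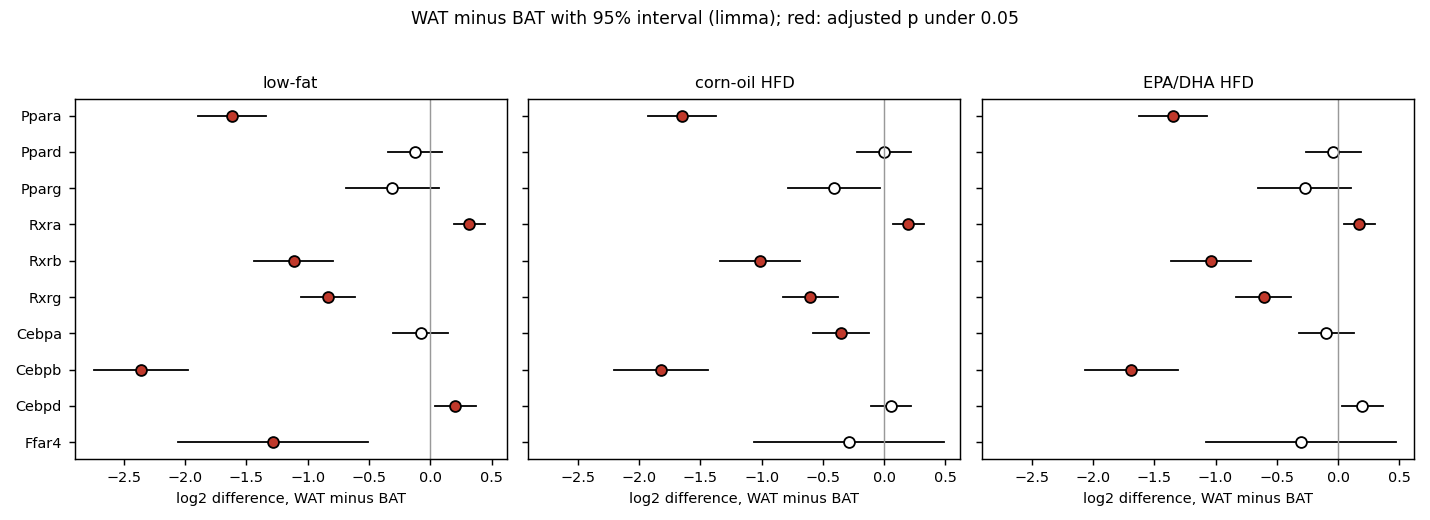
WAT minus BAT log2 difference (x axis) of each member (rows) on each diet, with the 95% interval from limma; filled red points have an adjusted p under 0.05. Cebpb, Ppara, Rxrb and Rxrg lie below 0 and Rxra above it on all 3 diets.

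Genes that these regulators are known to control or work with were described by 7 lists. In WAT on corn oil against low-fat, 1 of 21 measured PPARγ targets fell and 20 did not pass, a share near the 3.87% of all genes called. It was Pck1, which makes phosphoenolpyruvate for glycerol synthesis in fat, at -0.84 ± 0.15 (limma adjusted p = 0.0199). The list median was -0.05. Among 12 C/EBP targets, Pck1 and the insulin receptor Insr (-0.47 ± 0.11, adjusted p = 0.045) fell and the acute-phase gene Hp rose (0.81 ± 0.16, adjusted p = 0.0295), with a median of 0.01. Of 23 further C/EBP and adipogenic regulators, Klf2, which restrains fat cell formation, fell by 0.46 ± 0.09 (adjusted p = 0.0258). Ebf2, a factor of brown and beige fat precursors, fell by 0.35 ± 0.07 (adjusted p = 0.0258), and 21 did not pass. None of 23 PPARα and PPARδ targets, 9 other RXR partners, 14 coregulators or 9 genes of fatty acid sensing passed. Among the coregulators 13 of 14 differences were negative, with a median of -0.06.

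On EPA/DHA against corn oil in WAT, the insulin-responsive glucose transporter Slc2a4 rose by 0.50 ± 0.10 and Hp fell by 0.89 ± 0.16 among the C/EBP targets (limma adjusted p = 0.0409 and 0.0262). The WAT liver score had means of 10.5 on low-fat, 10.9 on corn oil and 9.9 on EPA/DHA, with wide overlap between arrays. Its part in the rise of Hp on corn oil and its fall on EPA/DHA was not tested. Ebf2 rose by 0.33 ± 0.07 (adjusted p = 0.0412). Of all genes 2.34% were called here. None of 21 PPARγ targets passed, 15 being positive with a median of 0.14, and none of 23 PPARα and PPARδ targets, 16 being positive with a median of 0.15. The median over all genes was close to 0. EPA/DHA replicate 2 was the WAT array highest in brown markers (9.95). The PPARγ list holds the brown markers Cidea and Ucp1. The part of this array in the list medians and in the rise of Ebf2 was not tested. In the fatty acid sensing list Ffar3, a receptor for short-chain fatty acids, had the smallest p, at 0.48 ± 0.14 (adjusted p = 0.116). Among RXR partners it was the vitamin D receptor Vdr, at 0.07 ± 0.02 on corn oil against low-fat (adjusted p = 0.0674). Among coregulators it was the deacetylase Sirt1, at -0.22 ± 0.06 on EPA/DHA against low-fat (adjusted p = 0.379). No list had a gene past the threshold in WAT on EPA/DHA against low-fat or in any BAT comparison.

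**Figure D5:**
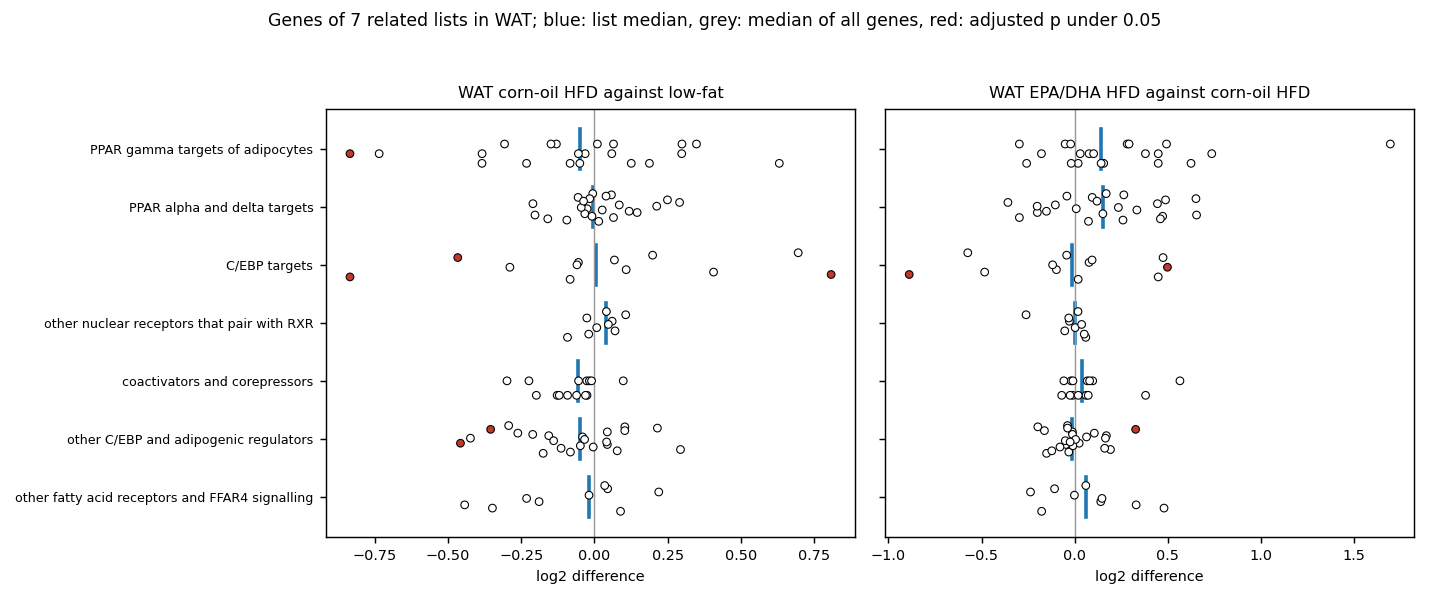
Log2 difference (x axis) of each measured gene (points) of the 7 lists (rows) in WAT for corn oil against low-fat and EPA/DHA against corn oil; blue bars are list medians, the grey line the median of all genes, and red points have an adjusted p under 0.05. Red points are few, 1 to 3 in the lists that have any, and the PPAR target medians lie at 0.14 and 0.15 on the right.

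In BAT on corn oil against low-fat, 3 of 21 PPARγ targets had positive differences, with a median of -0.13. So did 6 of 22 PPARα and PPARδ targets, also with a median of -0.13. The median over all genes was -0.003. The fat cell score was also lower in these corn-oil arrays, with no overlap, and its part in the list medians was not tested. Acot1, a PPARα-induced thioesterase of fatty acyl-CoA, had the smallest p of its list, at -1.44 ± 0.31 (limma adjusted p = 0.233). In WAT it was at 0.21 ± 0.16, and the difference between the tissues passed at 1.65 ± 0.37 (limma adjusted p = 0.0483). No other listed gene passed in either interaction, where 0.652% and 0.252% of all genes were called. The adjusted p of Acot1 lies close to the threshold, and its call was not tried in the alternative fits. The part of the BAT marker scores in it was not tested.

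Between the tissues on the low-fat diet, 17 of 23 PPARα and PPARδ targets were lower in WAT, 1 was higher and 5 did not pass, with a median of -1.17 against -0.01 for all genes. Of the 12 C/EBP targets 8 were higher in WAT and 2 lower, with a median of 0.57. Of 21 PPARγ targets 6 were higher and 9 lower. These counts stand beside 23.3% of all genes higher and 20.4% lower, and the higher PPARγ targets lie near that share. The part of the liver signal of WAT in the C/EBP target counts was not tested. Low-fat BAT carried a skeletal muscle signal, with a score of 8.77 to 10.9. Its part in the PPARα and PPARδ target counts and in the examples below was not tested either. Some examples were chosen after their values were seen. Cpt1b, which admits fatty acids to the mitochondria, was at -4.97 ± 0.30, and the PGC-1 coactivator genes Ppargc1a and Ppargc1b were at -3.34 ± 0.46 and -3.02 ± 0.18. Of the short-chain fatty acid receptors Ffar2 was 2.91 ± 0.17 higher in WAT, and Ffar3 was at -2.41 ± 0.20. All of these passed by limma.

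For members that spanned at least 0.5 over the 12 arrays of a tissue, the genes closest in pattern were found by Pearson correlation, as a description of arrays that share their diets and normalisation. For Ffar4 in WAT these were Plpp6 (r = 0.942), Aamdc (r = 0.927) and Echs1 (r = 0.919), out of 13348 genes. For Cebpa in WAT they were Usf3 (r = 0.92), Golgb1 (r = 0.919) and Echdc2 (r = 0.888). In BAT, with 13399 genes, Ffar4 was closest to Sdc4 (r = 0.949), Zfp592 (r = 0.941) and Acot4 (r = 0.941), and Rxrg to Kcnk3 (r = 0.969), Ccno (r = 0.939) and Eef1e1 (r = 0.913). Cebpb in BAT was closest to Sesn2 (r = 0.956), Bag3 (r = 0.885) and Fbxo28 (r = 0.883). The closest genes to Pparg were Mzt1 in WAT (r = 0.846) and Celf1 in BAT (r = 0.888). The genes named for Ffar4 in WAT and in BAT were different ones.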

How the data were processed

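RNA was hybridised to Illumina arrays, per the labels. The authors deposited log2 expression per probe made with lumi 2.18.0, per the submitters' processing notes; whether the log2 scale is plain or variance-stabilised is not given in the sources used here, so small differences near the floor can be understated. The values are quantile normalised over all 24 arrays, as found from the values. Precision is limited by the number of arrays. Of 45281 probes, 34885 had 1 symbol (34818 matched a RefSeq gene), 18 had several and 10378 are unnamed here. Probe sequences were not aligned.

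Diets were compared within a tissue by limma 3.58.1 (R 4.3.3) with 3 diet means over 12 arrays, and tissues and interactions over all 24. Probes whose mean was above the 40th percentile (7.11) were kept, 27168 per tissue and 29493 in either. Tests were two-sided, adjusted by Benjamini-Hochberg over kept probes, with a threshold of 0.05. Each fit was tested on simulated data with known changes added to WAT or BAT. The members and lists were chosen with earlier results of these data known. All members are named; from each list, up to 4 genes past the threshold in a diet comparison, otherwise that with the smallest p. Alternatives were filters, normalisations, priors, array weights, all arrays in 1 fit, any probe, the replicate block, marker covariates and leaving out arrays.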

Additional observations from a re-analysis of the deposited data

Results flagged for a closer look

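In 6 of 60 groups of 4 arrays, 1 array of a member's brightest probe stood far from the other 3; by chance about 1 group in 20 does. Ppara in BAT on EPA/DHA read 7.98 in replicate 4 and 8.74 to 8.78 in the others. Low-fat BAT replicate 2, the array with the lowest mean correlation with its tissue, was high for Ppard (9.61 against 9.09 to 9.11) and Rxra (7.48 against 7.33 to 7.36). Cebpd read 8.32 in low-fat BAT replicate 3 against 8.09 to 8.11, and 8.67 in EPA/DHA WAT replicate 1 against 8.33 to 8.35. Ffar4 read 10.24 in low-fat WAT replicate 4 against 10.38 in each of the others; without that array its corn-oil difference was -0.45 (limma adjusted p = 0.056).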

How the results depend on the processing

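Of 213 alternative counts of members called, 200 stayed within 1.5 times the main count and 13 did not, all in WAT. For corn oil against low-fat, 2 members were called. This count was 1 in a fit over all 24 arrays, 1 (Cebpa) with the replicate block and 0 with the macrophage covariate, and 1 to 2 when an array was left out. For EPA/DHA against corn oil, where 1 was called, it was 0 in the fit over all 24 arrays, 0 with the macrophage covariate and 0 to 1 when an array was left out. In the fit over all 24 arrays, which takes in the wider spread of Ffar4 in BAT, its adjusted p was 0.865 and 0.765. Of 2017 alternative member differences, 35 lost a call, 3 gained one and 0 called differences changed sign; 90 that never passed changed sign. Cebpa kept its fall in 18 of 19 alternatives, Ffar4 its fall in 9 and its rise in 16. The falls and rise were the same in sign in all 19. Same-numbered arrays correlated over 0.1 in their deviations in 7 of 12 WAT pairs (-0.27 to 0.55). These were 0.45 to 0.55 for replicate 1 and at most -0.01 for replicate 2. They did so in 5 of 12 BAT pairs, at 0.36 to 0.44 for replicate 4 and negative for replicate 3, and in 0 of 12 pairs between tissues. The numbers were not taken as pairing in the main fits. With them as a block within WAT, the Ffar4 fall lost its call (limma adjusted p = 0.0603). The Cebpa fall (adjusted p = 0.0301) and the Ffar4 rise (adjusted p = 0.0403) kept theirs.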
